A study of Homo sapiens with 23 samples.

Results

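The 10 genes described here encode matrix-binding integrin subunits. *ITGA1* and *ITGA2* are alpha subunits of collagen receptors, and *ITGA3* belongs to a laminin receptor. *ITGA5* and *ITGAV* recognise the RGD motif of fibronectin and vitronectin. *ITGB1*, *ITGB3*, *ITGB5*, *ITGB6* and *ITGB8* are beta subunits with which these alpha subunits pair. The 10 genes were chosen by name for their place in the integrin family and not by a cut on any measured value. Earlier results of these data were known when they were chosen. They make up 10 of the 61806 genes listed for the first 17 libraries and 10 of the 42901 genes listed for the 6 deep libraries. All 10 passed the filter on low counts in each comparison.

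Integrins are cell-surface receptors made of 1 alpha and 1 beta subunit, which bind extracellular matrix outside the cell and the actin cytoskeleton, through talin and other adapters, inside it. *ITGB1* is the partner of *ITGA1*, *ITGA2*, *ITGA3* and *ITGA5*, whereas *ITGAV* also pairs with *ITGB3*, *ITGB5*, *ITGB6* and *ITGB8*. In lung epithelium the receptors of *ITGAV* with *ITGB6* or *ITGB8* are known for binding latent TGF-beta and releasing it in active form.

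RNA was sequenced from A549 cells, an established line of human lung adenocarcinoma, after knockdown of *THUMPD3*, a methyltransferase that makes m2G in tRNA. In the first 17 libraries the groups were siTHUMPD3 (n = 3, transfected with an siRNA) with siControl (n = 2), shD3#1 (n = 3) with sh1Control (n = 3) and shD3#4 (n = 3) with sh4Control (n = 3). The deep libraries were of shD3#1 (n = 3) and sh1Control (n = 3). Each shRNA was introduced by lentivirus, selected with puromycin and induced with doxycycline. The study calls its control samples untreated, but the sources used here do not state outright whether the shRNA controls received doxycycline. Nor do they state whether the deep libraries came from the same cultures as the first ones. All groups share the A549 background. Control samples carry the label WT, replicates are labelled as biological, and siRNA samples were harvested a day earlier than shRNA samples after treatment began.

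Libraries held 9854294 to 22101059 counts in the first table and 27285889 to 59974740 in the deep table. Every deep knockdown library was shallower than every deep control library. *THUMPD3* stood at 50.6% of control in shD3#1, 31.0% in shD3#4, 17.1% in siTHUMPD3 and 49.6% in deep shD3#1. In all 4 comparisons its knockdown libraries lay below the controls. The 2-sided exact permutation p was 0.1 for 3 libraries against 3 and 0.2 for 3 against 2, and 3 against 3 cannot go below 0.1. A sum of 12 markers of A549 epithelial cells stood at 10770 to 20120 cpm (counts relative to library size, scaled with edgeR's trimmed mean of M values, TMM) over the 23 libraries, and none of the 12 was at 0 in any group. Sums stood at 5.03 to 33.9 cpm for 8 fibroblast markers, 0.142 to 2.46 cpm for 6 endothelial markers and 2.48 to 103 cpm for 6 leukocyte markers. The fibroblast sum was higher in every knockdown group, with *DCN* at 0 in 6 of the 8 groups. It was 17.5 to 19.5 cpm in shD3#1 (8.28 to 10.3 in sh1Control) and 12.4 to 15.5 in shD3#4 (6.82 to 10.2). It was 9.42 to 12.0 in siTHUMPD3 (5.03 to 7.31) and 32.2 to 33.9 in deep shD3#1 (10.9 to 11.9). Its markers did not all rise. In shD3#1 the mean of *COL3A1* went from 0.582 to 6.24 cpm and that of *COL1A1* from 4.56 to 7.44 cpm. *THY1* went from 1.65 to 1.28 cpm and *PDGFRB* from 0.139 to 0.0432 cpm, each with overlapping libraries. The endothelial sum was 2.14 to 2.46 cpm in siTHUMPD3 and 0.142 to 0.391 cpm in siControl, and the leukocyte sum was 94.9 to 103 cpm in deep shD3#1 and 52.2 to 54.7 cpm in its controls, with *CD3E* at 0 in those controls. The part of these markers in the results below was not tested. One library stood apart: siTHUMPD3 replicate 3 had an epithelial sum of 10770 cpm, against 19980 and 20120 cpm in the other siTHUMPD3 libraries and 16050 and 18290 cpm in siControl. The siRNA calls of the 10 genes are therefore also given without it, but those of other named genes are not. In bulk RNA of this kind, fewer cells of a type and less RNA per cell cannot be told apart.

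Promoter windows of 8 of the 10 genes were found in a RefSeq table on GRCh38.p14, 12 windows in all. The stretches that follow belong to *ITGA1*, *ITGA2*, *ITGB6* and *ITGB8*, shown because *ITGB8* was called in every comparison, *ITGB6* in shD3#4 alone, and the neighbours *ITGA1* and *ITGA2* in opposite directions in shD3#1. Each ends before the transcription start of both RefSeq and GENCODE. They are *ITGA1* chr5:52787666-52787915 (plus strand), *ITGA2* chr5:52989102-52989339 (plus), *ITGB6* chr2:160200314-160200522 (minus) and *ITGB8* chr7:20330650-20330701 (plus), written 5′ to 3′. Capitals mark a GC box (GGGCGG) or a CACCC box (CACCC) on either strand.
ITGA1: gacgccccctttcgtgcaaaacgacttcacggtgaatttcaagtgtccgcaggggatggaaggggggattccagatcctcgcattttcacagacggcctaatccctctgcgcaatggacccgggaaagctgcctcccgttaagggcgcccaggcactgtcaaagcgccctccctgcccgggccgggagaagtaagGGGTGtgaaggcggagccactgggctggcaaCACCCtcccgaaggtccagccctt
ITGA2: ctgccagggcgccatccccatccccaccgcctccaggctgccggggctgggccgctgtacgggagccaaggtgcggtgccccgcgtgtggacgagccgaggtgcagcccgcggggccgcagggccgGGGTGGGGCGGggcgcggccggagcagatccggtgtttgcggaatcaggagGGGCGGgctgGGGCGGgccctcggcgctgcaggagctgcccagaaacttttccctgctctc
ITGB6: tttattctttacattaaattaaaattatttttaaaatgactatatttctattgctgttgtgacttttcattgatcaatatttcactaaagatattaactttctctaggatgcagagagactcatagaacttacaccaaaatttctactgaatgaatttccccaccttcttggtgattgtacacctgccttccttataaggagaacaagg
ITGB8: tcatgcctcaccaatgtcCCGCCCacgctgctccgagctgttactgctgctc
The windows differed in base composition. Over the 250 bases upstream of the RefSeq start, G and C made up 76.4% in *ITGA2*, 71.2% in *ITGB8* and 62.0% in *ITGA1*, but 30.0% in *ITGB6*. A GC box matched 4 times in *ITGA2* and 2 times in *ITGB8*, and 0 times in *ITGA1* and *ITGB6*, where 42.6% of all 35116 promoter windows of that length held at least 1 match. The CACCC box matched 2 times in *ITGA1*, 1 time in *ITGA2* and 3 times in *ITGB8*, against 54.7% of all windows. TGANTCA, the letters bound by AP-1, were in none of the 12 windows of integrin genes and in 6.57% of all windows. These letters were searched on both strands, overlapping matches were counted, and a match is a description of the sequence only.

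*ITGB1* was the most abundant subunit in the control cells. In sh1Control its level per length was 637 ± 30.9 cpm per kb of the canonical transcript (SD, n = 3), followed by *ITGB5* at 90.4 ± 3.06 and *ITGA3* at 78.6 ± 1.25 cpm per kb. *ITGAV* stood at 45.6 ± 1.97, *ITGA2* at 12.3 ± 0.561 and *ITGA5* at 10.3 ± 0.425 cpm per kb. The 4 lowest subunits were *ITGA1* at 1.68 ± 0.124, *ITGB8* at 1.03 ± 0.0419, *ITGB6* at 0.898 ± 0.210 and *ITGB3* at 0.238 ± 0.0132 cpm per kb. *ITGB8* and *ITGB6* overlapped between libraries of sh1Control, and all other neighbours in the order were apart. In sh4Control the ranges of *ITGB5* and *ITGA3*, of *ITGA2* and *ITGA5*, and of *ITGB6* and *ITGB8* overlapped. Among the siControl libraries, *ITGA3* stood above *ITGB5* (120 ± 27.6 against 72.6 ± 7.28 cpm per kb, n = 2), and *ITGA1* stood 9th. Ranges there overlapped for *ITGA2* and *ITGA5*, for *ITGB6* and *ITGB8*, and for *ITGB8* and *ITGA1*. The deep controls were normalised and counted in a table of their own, where *ITGB3* was 7th at 2.24 ± 0.310 cpm per kb (n = 3). Scaling by all exons of each gene in place of the canonical transcript, a choice made after the values were seen, exchanged *ITGB8* with *ITGB6* in sh1Control, *ITGA5* with *ITGA2* and *ITGA1* with *ITGB6* in the deep controls, and no other ranks.

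**Figure D1:**
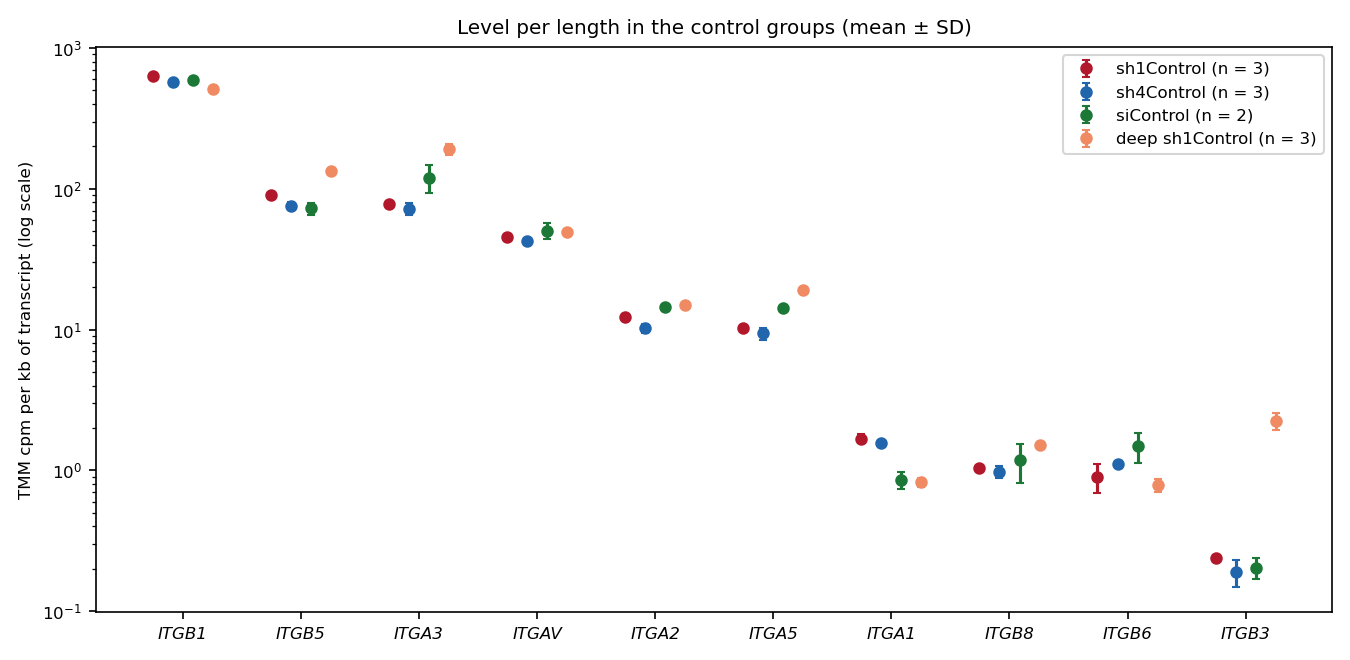
TMM cpm per kb of canonical transcript on a log axis for the 10 integrin subunits, as mean ± SD of each control group (2 libraries for siControl, 3 for the others). *ITGB1* lies above all other subunits in each control group, and *ITGB3* lies lowest in the first 3 groups but not in the deep controls, whose table was normalised separately.

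Among the 10 subunits, 5 rose and 2 fell in shD3#1, 2 rose in shD3#4, 4 rose in siTHUMPD3, and 4 rose and 2 fell in deep shD3#1. Calls required an adjusted p under 0.05 (edgeR, Benjamini-Hochberg over all genes tested) and a change of 1.5 times or more in either direction. Over all genes, 14.5% were called higher and 14.6% lower in shD3#1, 8.0% and 4.49% in shD3#4, 12.5% and 9.42% in siTHUMPD3, and 15.0% and 14.1% in deep shD3#1. None of the 10 was called lower in shD3#4 or siTHUMPD3 by edgeR. At an unadjusted p under 0.05, 1 was lower in shD3#4 and 0 in siTHUMPD3, and DESeq2 called 0 lower in either. The median log2 fold change of the 10 was 0.48 in shD3#1, 0.21 in shD3#4, 0.61 in siTHUMPD3 and 0.43 in deep shD3#1, beside -0.01, 0.01, 0.03 and -0.01 over all genes tested. For 8, 7, 7 and 10 of the 10 genes in that order the knockdown libraries lay wholly above or below the controls, as for 62.1%, 49.6%, 60.0% and 67.1% of all genes tested.

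**Figure D2:**
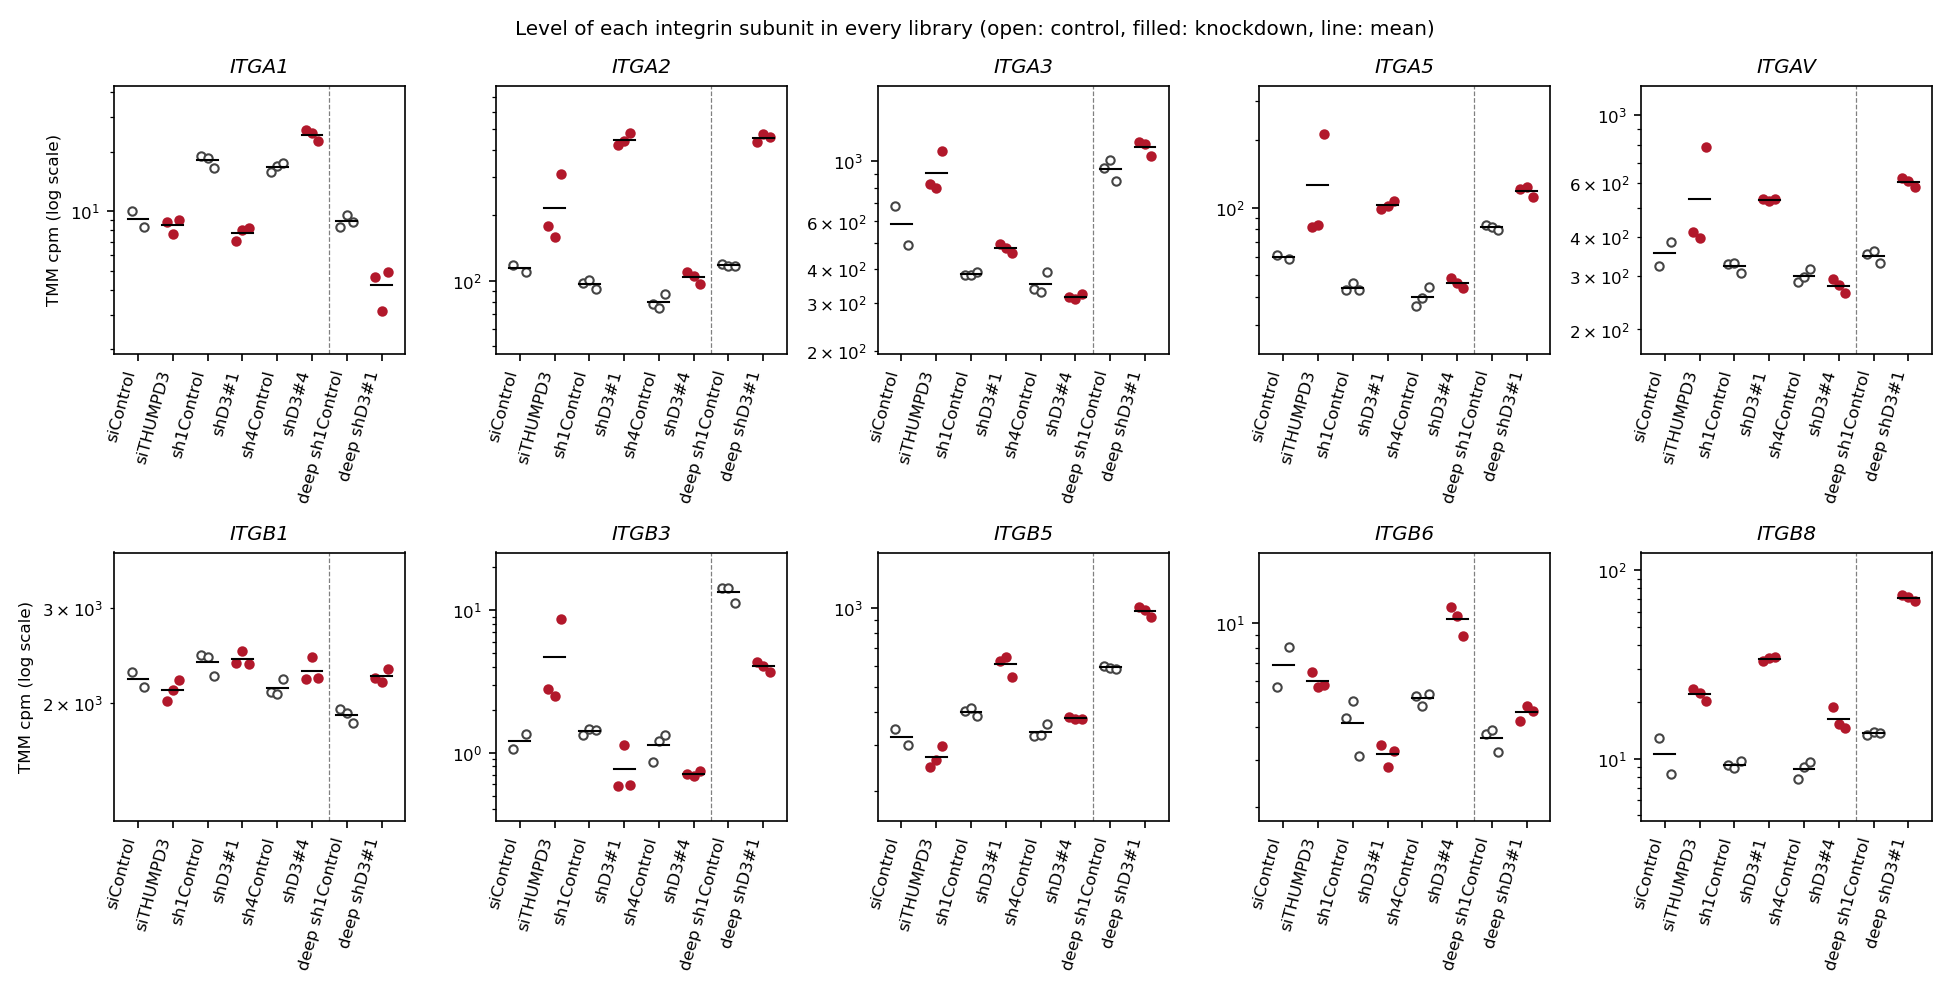
TMM cpm on log axes for each integrin subunit in all 23 libraries, with open circles for controls, filled circles for knockdowns and a line at each group mean. *ITGB8* is higher in every knockdown group than in its own controls, *ITGA1* is lower in shD3#1 and higher in shD3#4, and the dashed line parts the deep libraries, which were normalised separately.

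*ITGB8*, the TGF-beta-releasing partner of *ITGAV*, was the only 1 of the 10 called in the same direction in all 3 of the first knockdowns, as were 1.83% of genes tested in all 3. The gene lies at chr7:20330702-20415754 on the plus strand. Its level was 9.27, 8.90 and 9.66 cpm in sh1Control and 32.9, 34.0 and 34.5 cpm in shD3#1. In shD3#4 it was 18.9, 15.2 and 14.4 cpm, with 7.84, 9.01 and 9.58 cpm in sh4Control. It was 23.5, 22.3 and 20.1 cpm in siTHUMPD3 and 12.9 and 8.31 cpm in siControl. Every knockdown library was therefore above every library of its own control group, with the widest gap in shD3#1. The log2 fold changes were 1.88 ± 0.08 (SE, adjusted p = 2.76e-11) in shD3#1, 0.90 ± 0.11 (adjusted p = 2.61e-07) in shD3#4 and 1.04 ± 0.19 (adjusted p = 0.00494) in siTHUMPD3. In the deep libraries *ITGB8* stood at 13.4, 13.8 and 13.6 cpm in controls and 73.7, 72.2 and 68.2 cpm in shD3#1, a fold change of 5.24 (log2 2.39 ± 0.05, adjusted p = 1.58e-13). Without siTHUMPD3 replicate 3 its siRNA change was 1.08 ± 0.17 on the log2 scale (adjusted p = 0.00078). The siRNA call was lost with glmTreat of edgeR, which tests against the fold threshold itself (adjusted p = 0.0563), so that by glmTreat *ITGB8* was called in the other 3 comparisons but not in siTHUMPD3.

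*ITGA2*, which binds collagen as the partner of *ITGB1*, had the largest log2 fold change of the 10 in shD3#1. It lies at chr5:52989340-53094779, next to *ITGA1* on the same strand. Its level rose from 97.2, 101 and 92.0 cpm in sh1Control to 423, 439 and 480 cpm in shD3#1. This was a fold change of 4.69 (log2 2.23 ± 0.07, adjusted p = 1.06e-12), and in the deep libraries it was 3.87 (log2 1.95 ± 0.04, adjusted p = 1.35e-13). In shD3#4 the libraries also lay above their controls but by less. They held 109, 105 and 96.6 cpm against 78.4, 75.3 and 86.8 cpm, a log2 change of 0.39 ± 0.07 (adjusted p = 5.59e-05) that did not reach the fold threshold. Among the siTHUMPD3 libraries, *ITGA2* was at 178, 159 and 310 cpm, with 118 and 110 cpm in siControl. The log2 change of 0.92 ± 0.27 (adjusted p = 0.0321) fell to 0.56 ± 0.09 (adjusted p = 0.000785), below the fold threshold, when siTHUMPD3 replicate 3, the highest library, was left out. Without siControl replicate 1 the adjusted p was 0.130, and without siControl replicate 2 it was 0.168. DESeq2 did not call *ITGA2* in siTHUMPD3 either (adjusted p = 0.0814).

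*ITGA1*, the other collagen-binding alpha subunit among the 10, had effects of opposite sign under the shRNAs. It lies at chr5:52787916-52959209, and 4.65% of its canonical transcript is shared on the same strand with *PELO*, a gene within it. In shD3#1 it fell to 7.07, 8.05 and 8.26 cpm from 19.0, 18.7 and 16.5 cpm in sh1Control. The log2 change was -1.20 ± 0.10 (adjusted p = 8.33e-08), and -1.05 ± 0.13 (adjusted p = 7.99e-06) in the deep libraries. In shD3#4 it stood at 25.8, 24.8 and 22.7 cpm against 15.8 to 17.6 cpm, all 3 libraries above their controls. That log2 change, 0.56 ± 0.08 (adjusted p = 4.02e-06), was just under the fold threshold. It reached 0.61 without shD3#4 replicate 3, where *ITGA1* was called higher. In the siRNA libraries the groups overlapped, at 8.83, 7.66 and 9.05 cpm in siTHUMPD3 and 10.1 and 8.31 cpm in siControl, with a 95% interval of the log2 change from -0.48 to 0.26.

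The balance between *ITGA2* and *ITGA1* shifted toward *ITGA2* in shD3#1, and no other integrin subunit entered this comparison. Per transcript length, the ratio of *ITGA2* to *ITGA1* was 7.34 ± 0.313 in sh1Control and 78.7 ± 3.78 in shD3#1, and 18.2 ± 1.45 and 154 ± 44.8 in the deep libraries (SD, n = 3 each). It was 6.08 to 6.80 in sh4Control and 5.80 to 5.83 in shD3#4. In siControl it was 16.1 and 18.1, and in siTHUMPD3 27.6, 28.5 and 46.9, the last in replicate 3. These ratios were looked at after the values of both genes were seen and are a description without a test.

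*ITGA3*, the subunit of a laminin receptor among the 10, was 1 of the most abundant of them. It stayed under the fold threshold in each shRNA comparison. It lies at chr17:50055968-50090481. Its mean level was 478 ± 18.7 cpm in shD3#1 and 384 ± 6.13 cpm in sh1Control (SD, n = 3 each), a log2 change of 0.33 ± 0.06 (adjusted p = 8.87e-05) that was under the fold threshold. The deep log2 change was 0.27 ± 0.06 (adjusted p = 0.0018), and in shD3#4 it was -0.14 ± 0.07 (adjusted p = 0.106). *ITGA3* was called higher in siTHUMPD3 alone, at 821, 799 and 1086 cpm against 683 and 492.5 cpm in siControl. That log2 change of 0.62 ± 0.19 (adjusted p = 0.0375) was 0.46 ± 0.14 without siTHUMPD3 replicate 3 (adjusted p = 0.0234, under the fold threshold), 0.39 without siControl replicate 2 (adjusted p = 0.237), and lost its call without siTHUMPD3 replicate 1 (adjusted p = 0.052) or 2 (adjusted p = 0.0545).

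*ITGA5*, the fibronectin-binding partner of *ITGB1* at chr12:54395261-54419266, rose in shD3#1. It was 99.1, 102 and 107 cpm there and 42.6, 45.8 and 42.8 cpm in sh1Control (log2 1.25 ± 0.07, adjusted p = 3.03e-10). In the deep libraries the change was smaller, 121, 124 and 112 cpm against 83.8, 82.1 and 79.5 cpm, and its log2 value of 0.54 ± 0.05 (adjusted p = 1.96e-07) stayed under the fold threshold. In shD3#4 the groups overlapped, with a log2 change of 0.22 ± 0.07 (adjusted p = 0.0177). The siTHUMPD3 libraries held 81.9, 83.6 and 213.5 cpm against 61.5 and 59.1 cpm. Their log2 change of 1.07 ± 0.41 was not called (adjusted p = 0.0785), and replicate 3 alone was more than 2 times each of the other libraries. Without replicate 3 the log2 change was 0.45 ± 0.08 (adjusted p = 0.00138), again under the fold threshold, and without siTHUMPD3 replicate 1 it was 1.32 and called higher (adjusted p = 0.0382).

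*ITGAV*, the alpha subunit shared by the RGD receptors, lies at chr2:186590010-186680901. It rose in shD3#1, from 328, 330 and 305 cpm to 534, 526 and 533 cpm (log2 0.74 ± 0.06, adjusted p = 1.84e-08). The deep libraries gave 0.80 ± 0.05 (adjusted p = 2.59e-09). In shD3#4, with 292, 280 and 263 cpm against 285, 297 and 315 cpm, the groups overlapped and the 95% interval of the log2 change ran from -0.22 to 0.05. In siTHUMPD3 the levels were 417.5, 397 and 787 cpm against 323 and 386 cpm. The log2 change of 0.59 ± 0.29 was not called (adjusted p = 0.152) and was 0.19 ± 0.10 without replicate 3 (adjusted p = 0.159).

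*ITGB1*, the common beta subunit at chr10:32887273-33005792, was called in none of the 4 comparisons. The mean level was 2379 ± 115 cpm in sh1Control and 2413 ± 75.5 cpm in shD3#1, 2134 ± 76.1 in sh4Control and 2295 ± 125 in shD3#4 (SD, n = 3 each). For shD3#1 the 95% interval of the log2 change was -0.08 to 0.16, for shD3#4 it was -0.03 to 0.27, and for siTHUMPD3 it was -0.33 to 0.20, each inside the fold threshold. In the deep libraries *ITGB1* was higher by 0.24 ± 0.05 (adjusted p = 0.000524), with 2227, 2184 and 2317 cpm in shD3#1 above 1949, 1915 and 1839 cpm in the controls.

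*ITGB5*, a vitronectin-binding partner of *ITGAV* at chr3:124761948-124901418, rose in shD3#1 near the fold threshold. It was at 629, 652 and 545.5 cpm in shD3#1 and 402.5, 414 and 387 cpm in sh1Control (log2 0.62 ± 0.07, adjusted p = 9.94e-07). Leaving out shD3#1 replicate 2 brought it to 0.57, just under the threshold, and glmTreat did not call it (adjusted p = 0.472). The deep libraries gave 0.71 ± 0.05 (adjusted p = 6.19e-09), called higher. In shD3#4 the log2 change was 0.19 ± 0.06 (adjusted p = 0.0213), with the groups apart at 376 to 385 cpm against 323 to 360 cpm. All 3 siTHUMPD3 libraries lay below siControl, at 247.5, 263 and 296 cpm against 345 and 299 cpm. The log2 change of -0.26 ± 0.11 was not called (adjusted p = 0.122). Without siTHUMPD3 replicate 3 it was -0.34 ± 0.10 (adjusted p = 0.0156), under the fold threshold.

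*ITGB6*, the epithelial partner of *ITGAV* that also binds latent TGF-beta, rose in shD3#4 alone among the 4 comparisons. It lies at chr2:160099667-160200313 on the minus strand, and 20.8% of its canonical transcript is shared on the same strand with a long noncoding RNA gene. Its level was 11.5, 10.6 and 8.90 cpm in shD3#4 and 5.26, 4.84 and 5.35 cpm in sh4Control (log2 1.03 ± 0.12, adjusted p = 1.65e-07). In shD3#1 it stood at 3.44, 2.84 and 3.24 cpm against 4.33, 5.05 and 3.12 cpm, with groups that overlapped (log2 -0.38 ± 0.19, adjusted p = 0.111). The deep libraries gave the opposite sign, 0.32 ± 0.12 (adjusted p = 0.034), under the fold threshold. In siTHUMPD3 the groups overlapped, and the 95% interval of the log2 change ran from -0.64 to 0.27.

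*ITGB3*, a partner of *ITGAV* and of the platelet subunit *ITGA2B*, was called in opposite directions in shD3#1 and siTHUMPD3, as 3.54% of genes tested in all 3 of the first knockdowns were in some pair of them. It lies at chr17:47253827-47313743 and had the fewest reads, 6 to 171 counts in each of the first libraries. The shD3#1 libraries held 9, 22 and 6 counts (0.584, 1.14 and 0.590 cpm) and in sh1Control 26, 26 and 29 counts (1.32, 1.48 and 1.44 cpm). The log2 change of -0.77 ± 0.30 (adjusted p = 0.0401) lost its call in 5 of the 6 comparisons that left out a library, with adjusted p from 0.0697 to 0.17 in those 5, and with DESeq2 (adjusted p = 0.11). In shD3#4 it held 15, 12 and 13 counts against 16, 25 and 25 (log2 -0.65 ± 0.30, adjusted p = 0.0828). In siTHUMPD3 *ITGB3* was at 2.80, 2.52 and 8.69 cpm, all above the 1.06 and 1.35 cpm of siControl, with the highest value in replicate 3. The log2 change of 1.97 ± 0.62 (adjusted p = 0.0438) was 1.15 ± 0.28 without replicate 3 (adjusted p = 0.00896), still called higher, and not called without siControl replicate 1 (adjusted p = 0.211) or 2 (adjusted p = 0.152). The deep libraries held 843, 727 and 620 counts in the controls and 132, 111 and 134 in shD3#1, a log2 change of -1.73 ± 0.12 (adjusted p = 1.06e-08). Levels of *ITGB3* in the deep controls, 11.2 to 14.4 cpm, were not compared with those of the first controls, since the tables were normalised separately. They also list different gene sets, and 38.1% of the canonical transcript is shared on the same strand with another annotated gene.

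**Figure D3:**
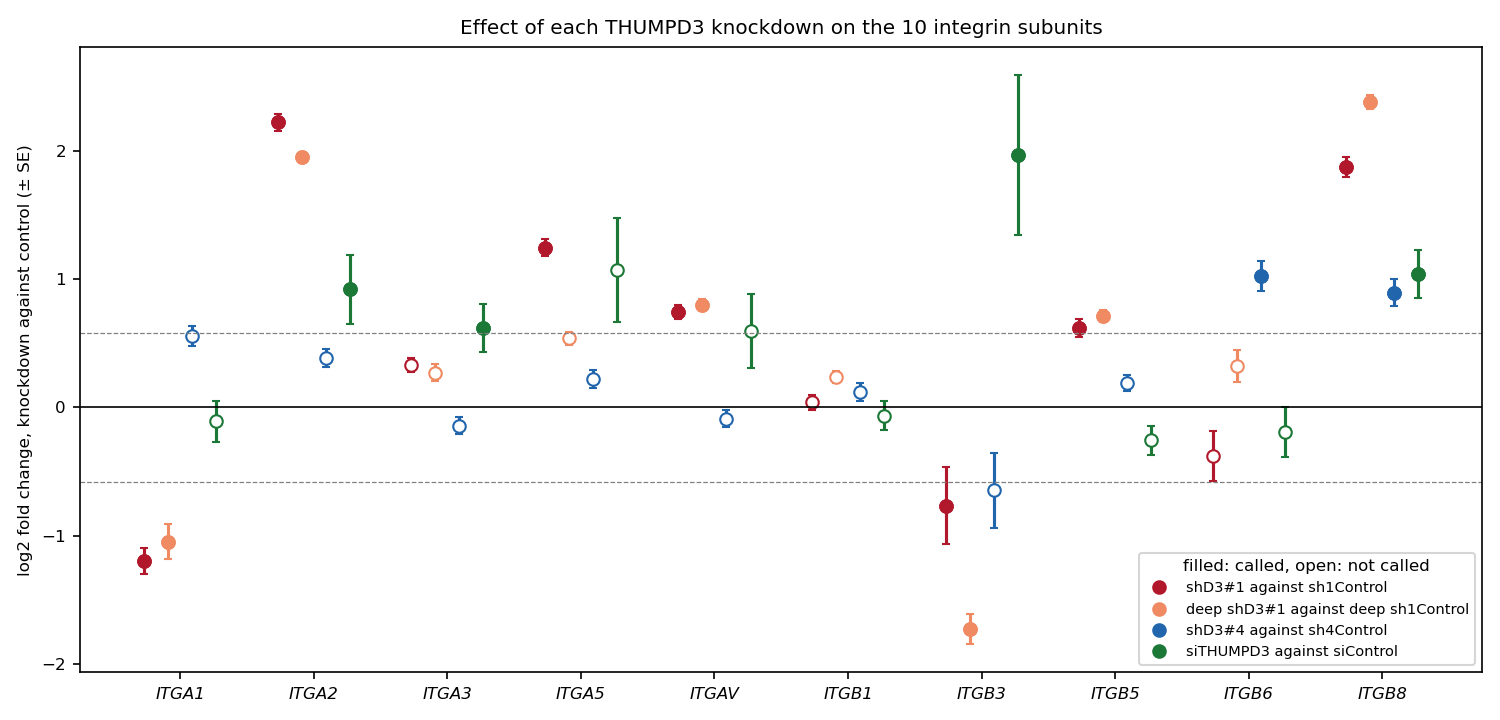
Log2 fold change of each integrin subunit in the 4 comparisons, as points with ± SE bars and dashed lines at the fold threshold of 1.5 times in either direction, filled where a gene was called. *ITGB8* is called higher in each comparison, *ITGA2* and *ITGB8* have the largest values in shD3#1, *ITGB6* is called in shD3#4 alone, and *ITGB3* lies on opposite sides of 0 in siTHUMPD3 and both shD3#1 comparisons.

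Among *ITGB3*, *ITGB5*, *ITGB6* and *ITGB8*, which pair with *ITGAV* as *ITGB1* also does, *ITGB5* made up most of the level per length in each group. It was 97.7% ± 0.102 of the summed level of these 4 in sh1Control and 96.7% ± 0.339 in shD3#1 (SD, n = 3 each). *ITGB8* made up 1.12% ± 0.0846 in sh1Control and 2.67% ± 0.296 in shD3#1, 1.26% ± 0.0828 in sh4Control and 2.01% ± 0.258 in shD3#4, and 1.55% ± 0.332 in siControl (n = 2) and 3.79% ± 0.618 in siTHUMPD3 (n = 3). The share of *ITGB6* was 1.42% ± 0.0771 in sh4Control and 2.48% ± 0.275 in shD3#4, above that of *ITGB8* on average in both groups, as in siControl (2.00% ± 0.676, n = 2). The shares were chosen for description after the values were seen, and no test was made of them.

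Leaving out siTHUMPD3 replicate 3, *ITGB3* and *ITGB8* were called higher in the siRNA comparison and none of the 10 lower by edgeR, beside 14.1% of all genes higher and 10.9% lower. Replicate 3 was the highest siTHUMPD3 library for *ITGA1*, *ITGA2*, *ITGA3*, *ITGA5*, *ITGAV*, *ITGB1*, *ITGB3* and *ITGB5*. Against the mean of siControl, its log2 ratio was 1.82 for *ITGA5*, 1.15 for *ITGAV* and 2.85 for *ITGB3*. The ratios of replicate 1 were 0.44, 0.24 and 1.22 for the same genes. For *ITGB8*, replicate 3 was the lowest of the 3 libraries, at a log2 ratio of 0.92.

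**Figure D4:**
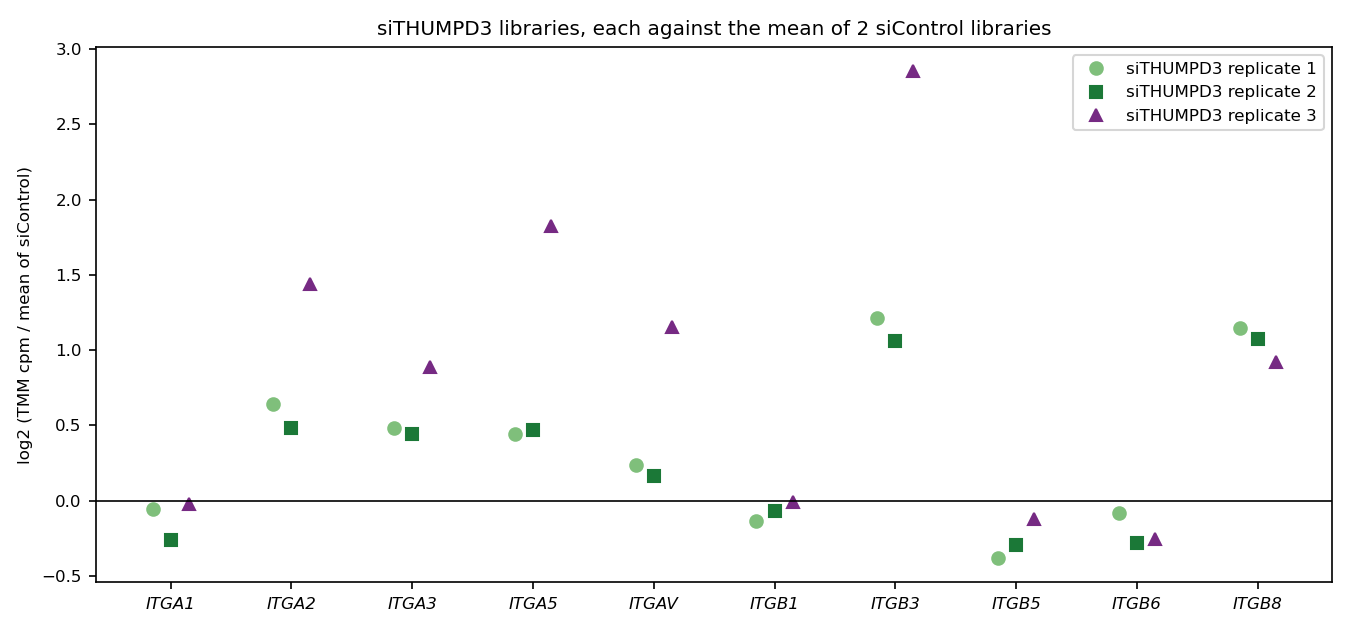
Log2 ratio of TMM cpm in each siTHUMPD3 library to the mean of the 2 siControl libraries, with a marker shape for each replicate. Replicate 3 lies apart for *ITGA2*, *ITGA5*, *ITGAV* and *ITGB3*, while all 3 replicates lie close together for *ITGB8*.

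The knockdowns differed from each other in the size and sign of their effects on these genes, as tested by the interaction of knockdown type and condition in 1 model of 17 libraries. Between shD3#1 and shD3#4, 4 of the 10 had a higher effect and 2 a lower effect in shD3#1, beside 12.1% and 13.8% of all genes. *ITGA1* and *ITGA2*, the collagen-binding alpha subunits among the 10, had the largest differences. Their log2 fold changes were lower by 1.76 ± 0.14 (adjusted p = 7.67e-09) and higher by 1.84 ± 0.22 (adjusted p = 1.43e-06) in shD3#1. For *ITGB6* the effect was lower by 1.40 ± 0.24 in shD3#1 (adjusted p = 0.000108). *ITGB8*, although called higher in both, rose more in shD3#1, by 0.98 ± 0.18 (adjusted p = 0.000202). Between siTHUMPD3 and shD3#1, 2 were higher and 3 lower in siTHUMPD3 (13.6% and 11.7% of all genes), among them *ITGB5* with a difference of -0.86 ± 0.12 (adjusted p = 1.18e-05). Between siTHUMPD3 and shD3#4, 3 were higher and 2 lower (9.24% and 8.56% of all genes), and the call of *ITGAV* among them was lost in 11 of 22 alternatives. *ITGB8* did not differ between siTHUMPD3 and shD3#4 by this test, with a 95% interval of the difference from -0.25 to 0.56.

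Averaged over the 3 knockdowns of the first libraries, *ITGB8*, *ITGA2* and *ITGA5* were higher and none of the 10 was lower by edgeR, beside 10.3% and 6.96% of all genes. At an unadjusted p under 0.05, 1 of the 10 was lower, and DESeq2 called 0 lower. The average log2 change was 1.26 ± 0.08 for *ITGB8* (adjusted p = 1.81e-11), 1.17 ± 0.10 for *ITGA2* (adjusted p = 1.58e-09) and 0.83 ± 0.14 for *ITGA5* (adjusted p = 3.67e-05). For *ITGB1* the 95% interval of the average was -0.07 to 0.11. *ITGA1*, with shRNA effects of opposite sign, had an average of -0.26 ± 0.06 that was not called.

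Genes whose level over the 17 first libraries was most like that of *ITGB8* were *KLF4*, a transcription factor of epithelial differentiation (Pearson r = 0.978 of log2 cpm), *GALNT5*, an O-glycosylation enzyme (r = 0.975), and *FNDC3B* (r = 0.971). For *ITGB3* they were *COL6A2*, a chain of collagen VI (r = 0.962), *RTN2* (r = 0.947) and *NRP2*, a semaphorin receptor (r = 0.929). These were the highest of 18672 genes, and the points share knockdown groups and controls, so the values are a description.

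Other genes of the integrin system were counted in lists. Of 16 other integrin subunits, 12 were tested in shD3#1, where 6 rose and 3 fell, beside 14.5% and 14.6% of all genes. The share that rose there was the same as among the 10 subunits. In shD3#4, 2 rose and 2 fell of 13 (15.4% and 15.4%, beside 8.0% and 4.49%). In siTHUMPD3, 5 rose and 1 fell of 14 (35.7% and 7.14%, beside 12.5% and 9.42%). In deep shD3#1, 6 rose and 4 fell of 13 (46.2% and 30.8%, beside 15.0% and 14.1%). Rises more frequent than over all genes were therefore not particular to the 10 subunits. Of the other subunits, *ITGAX*, an alpha subunit of leukocytes, had the highest mean change, 2.18 on the log2 scale over the first 3 knockdowns. Its level in siTHUMPD3 averaged 13.3 cpm against 1.67 cpm in siControl (log2 2.98 ± 0.23, adjusted p = 8.31e-05). *ITGA2B*, the platelet partner of *ITGB3*, had the lowest, at -1.48, and fell from 1.67 to 0.447 cpm in shD3#1 (log2 -1.95 ± 0.33, adjusted p = 9.82e-05). *ITGAX* was called higher and *ITGA2B* lower in each of the 4 comparisons.

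Transcripts of integrin ligands rose more often than they fell. These data hold no protein levels. After siRNA depletion, the study reported less protein from *FN1*, *TNC* and *LAMB3*, although their transcripts rose. Of 40 matrix ligands, 35 were tested in shD3#1, where 18 rose and 2 fell (51.4% and 5.71%, beside 14.5% and 14.6% of all genes). In shD3#4, 10 rose and 5 fell of 35 (28.6% and 14.3%, beside 8.0% and 4.49%). In siTHUMPD3, 21 rose of 37 (56.8%, beside 12.5%). In deep shD3#1, 13 rose and 3 fell of 36 (36.1% and 8.33%, beside 15.0% and 14.1%). None was called lower in siTHUMPD3 by edgeR, at an unadjusted p under 0.05 or by DESeq2. Their median log2 change was 0.59, 0.18, 0.86 and 0.24 in that order, beside medians near 0 over all genes. The list shares *COL1A1*, *COL1A2* and *COL3A1* with the fibroblast markers. *LAMB3*, a chain of the laminin bound by *ITGA3* receptors, had the highest mean change (log2 2.11). It stood at 20.1 cpm in sh1Control and 200 cpm in shD3#1 (log2 3.34 ± 0.07, adjusted p = 2.41e-14), and its log2 change was 0.64 ± 0.08 in shD3#4 (adjusted p = 3.34e-07) and 2.36 ± 0.28 in siTHUMPD3 (adjusted p = 0.00075). *NPNT*, which encodes nephronectin, had the lowest mean change (log2 -0.24), with a fall in shD3#1 (log2 -1.15 ± 0.11, adjusted p = 3.14e-07) and a rise in shD3#4 (log2 0.67 ± 0.09, adjusted p = 8.77e-07).

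The intracellular partners held calls in both directions. Of the activators and adapters, such as talin and kindlin genes, 4 rose and 5 fell among 40 tested in shD3#1 (10.0% and 12.5%, beside 14.5% and 14.6% of all genes). In shD3#4, 2 rose and 3 fell of 41 (4.88% and 7.32%, beside 8.0% and 4.49%), and in siTHUMPD3 3 rose and 2 fell of 41 (7.32% and 4.88%, beside 12.5% and 9.42%). In deep shD3#1, 6 rose and 8 fell of 41 (14.6% and 19.5%, beside 15.0% and 14.1%). These shares lay on either side of those over all genes. *TNS1*, a tensin that links beta tails to actin, rose in shD3#4 (log2 0.77 ± 0.13, adjusted p = 2.82e-05) and siTHUMPD3 (log2 1.15 ± 0.23, adjusted p = 0.00795). It fell in deep shD3#1 (log2 -1.09 ± 0.10, adjusted p = 2.70e-07). *KANK2*, a talin-binding protein, fell in shD3#1 (log2 -0.84 ± 0.07, adjusted p = 7.73e-08) and siTHUMPD3 (log2 -0.69 ± 0.09, adjusted p = 0.00105). Among 22 tested genes of inactivation and trafficking, 2 rose and 3 fell in shD3#1 (9.09% and 13.6%, beside 14.5% and 14.6% of all genes). In shD3#4 1 fell (4.55%, beside 4.49%), and in siTHUMPD3 3 rose (13.6%, beside 12.5%). In deep shD3#1, 1 rose and 1 fell (4.55% and 4.55%, beside 15.0% and 14.1%). Of this list *DAB2*, a clathrin adapter for integrin uptake, rose in siTHUMPD3 (15.8 to 49.2 cpm, log2 1.64 ± 0.15, adjusted p = 0.000207). *DOK1*, which competes with talin for beta tails, fell in shD3#1 (log2 -0.81 ± 0.21, adjusted p = 0.00371).

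Tetraspanins are membrane proteins that hold integrins in shared clusters. They were listed with other membrane partners of integrins that are not tetraspanins, namely *CD47*, *SLC3A2*, *BSG*, *PLAUR* and *CD46*. Of 12 genes tested from this mixed list, 4 rose and 2 fell in shD3#1 (33.3% and 16.7%, beside 14.5% and 14.6% of all genes). In shD3#4, 2 rose (16.7%, beside 8.0%). In siTHUMPD3, 2 rose and 1 fell (16.7% and 8.33%, beside 12.5% and 9.42%), and in deep shD3#1 3 rose (25.0%, beside 15.0%). Both genes that fell in shD3#1 were not tetraspanins. They were *SLC3A2*, the heavy chain of an amino acid transporter (log2 -0.60 ± 0.06, adjusted p = 3.40e-07), and *CD46*, a regulator of complement (log2 -1.01 ± 0.08, adjusted p = 4.31e-08), and *PLAUR*, the urokinase receptor, was 1 of the 4 that rose (log2 0.61 ± 0.07, adjusted p = 2.43e-06). These 3 genes are named after their values were seen. The tetraspanin *CD82* rose in each of the 4 comparisons, most in siTHUMPD3 (1.67 to 17.9 cpm, log2 3.39 ± 0.22, adjusted p = 3.94e-05). *CD9*, also a tetraspanin, fell in siTHUMPD3, from 74.5 to 37.6 cpm (log2 -0.99 ± 0.09, adjusted p = 0.000196), and its log2 change in shD3#1 was 0.12 ± 0.07 (adjusted p = 0.130).

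**Figure D5:**
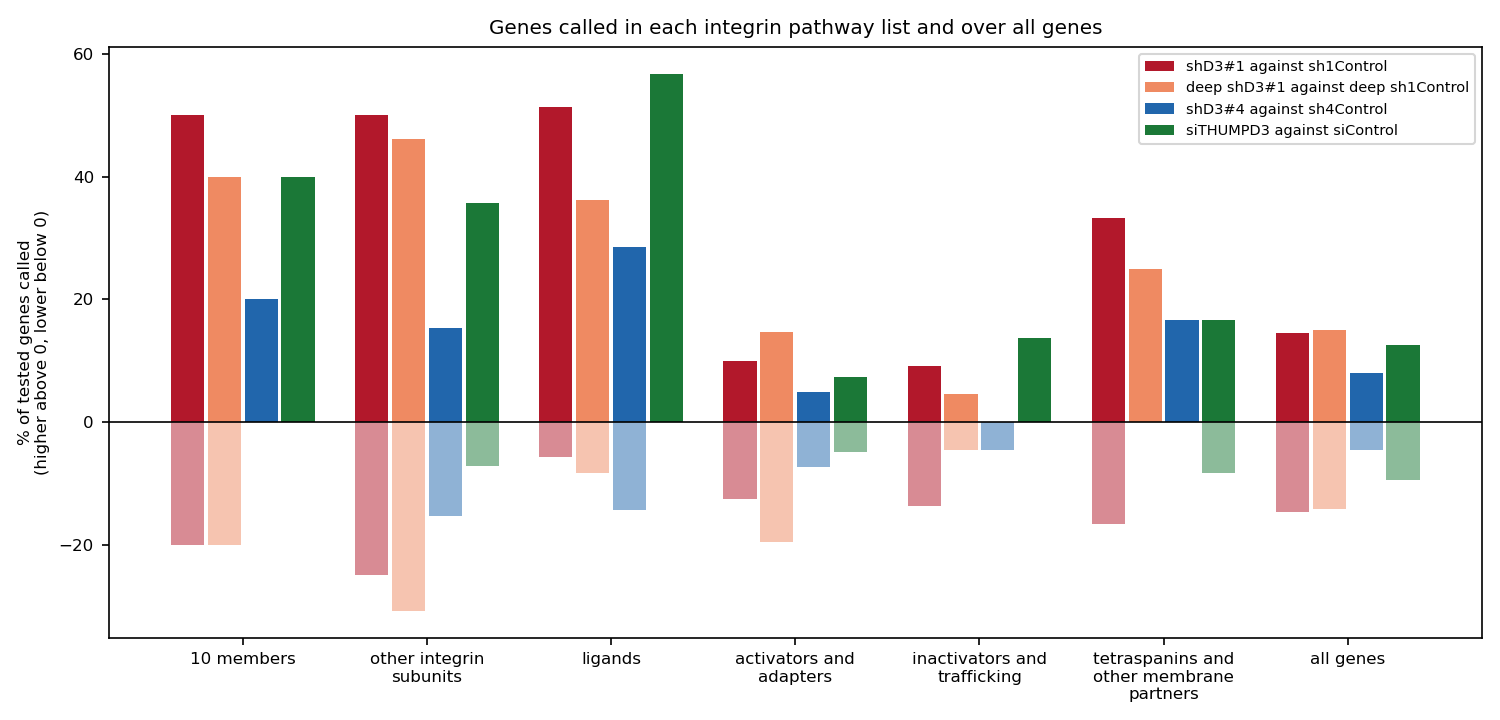
Percentage of tested genes called higher (bars above 0) and lower (paler bars below 0) in the 10 subunits, 5 lists of integrin-system genes and all genes tested, with 1 colour for each of the 4 comparisons. Among ligands, bars above 0 exceed those below in each comparison, and the bars of activators and adapters in deep shD3#1, 14.6% higher and 19.5% lower, stand beside 15.0% and 14.1% over all genes.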

How the data were processed

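Total RNA of A549 cells, depleted of ribosomal RNA, was sequenced from directional libraries. The authors trimmed reads (Trimmomatic 0.40), aligned them to GRCh38.p14 with STAR 2.7.10a and deposited counts of reads per gene, without normalisation, in 2 tables. The first table gives Ensembl identifiers, of which 61757 matched a symbol, and the deep table gives symbols, whereas the methods name the RefSeq annotation. The strand column used in counting is not given in the sources used here, and 0 columns were left out.

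The quasi-likelihood test of edgeR 4.0.16 (R 4.3.3), after TMM normalisation and filterByExpr, set each knockdown against its own control group. The study tested with DESeq2, which was an alternative here (1.42.0). Differences between knockdowns and their average came from 1 model of 17 libraries, with an interaction of condition and knockdown type. P-values were adjusted by the Benjamini-Hochberg method over all genes tested. The scripts were tested on simulated data. Gene models came from GENCODE 44 on GRCh38 and promoters from RefSeq. Per-length levels used Ensembl canonical transcripts. Python 3.11.15 was used for summaries.

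The genes, lists and tests were chosen with earlier results of these data known. Genes named by rule outside the 10 were *THUMPD3*, the genes with the highest and lowest mean change of each list over the first 3 knockdowns, and the 3 genes most correlated with *ITGB3* and *ITGB8*. Others were named to describe lists, markers or overlaps. Values of *SLC3A2*, *CD46* and *PLAUR* were given after they were seen. Same-numbered libraries of a knockdown and its control deviated with correlations of -0.21 to 0.22 over genes, so the numbers were not taken as pairs. Replicates of a group differed by more than counting noise (chi-square per degree of freedom of 1.81 to 36.2), so each was counted as a sample of its own.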

Additional observations from a re-analysis of the deposited data

Results flagged for a closer look

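Differences between knockdowns passed the thresholds for 16 combinations of an integrin subunit and a pair of knockdowns, each tested as an interaction in edgeR. Between shD3#1 and shD3#4, the log2 effect in shD3#1 was higher for *ITGA2* (1.84, adjusted p = 1.43e-06), *ITGB8* (0.98, adjusted p = 0.000202), *ITGA5* (1.02, adjusted p = 0.017) and *ITGAV* (0.83, adjusted p = 0.00657), and lower for *ITGA1* (-1.76, adjusted p = 7.67e-09) and *ITGB6* (-1.40, adjusted p = 0.000108). Between siTHUMPD3 and shD3#1, the effect in siTHUMPD3 was higher for *ITGA1* (1.10, adjusted p = 2e-05) and *ITGB3* (2.76, adjusted p = 0.00259), and lower for *ITGA2* (-1.29, adjusted p = 0.000163), *ITGB5* (-0.86, adjusted p = 1.18e-05) and *ITGB8* (-0.83, adjusted p = 0.00187). Between siTHUMPD3 and shD3#4, the effect in siTHUMPD3 was higher for *ITGA3* (0.77, adjusted p = 0.00141), *ITGAV* (0.70, adjusted p = 0.0396) and *ITGB3* (2.63, adjusted p = 0.00573), and lower for *ITGA1* (-0.65, adjusted p = 0.00311) and *ITGB6* (-1.19, adjusted p = 0.000696). The *ITGAV* difference between siTHUMPD3 and shD3#4 lost its call in 11 of 22 alternatives, among them DESeq2 (adjusted p = 0.11), leaving out siControl replicate 1 (0.55, adjusted p = 0.191), sh1Control replicate 1 (adjusted p = 0.0501) or any 1 of the sh4Control and shD3#4 libraries (adjusted p from 0.0525 to 0.0841). Without siControl replicate 1, that of *ITGB8* between siTHUMPD3 and shD3#1 was -0.48 (adjusted p = 0.0705) and that of *ITGA1* between siTHUMPD3 and shD3#4 was -0.52 (adjusted p = 0.05001), neither called. Without siControl replicate 2, that of *ITGA3* was 0.54, under the fold threshold (adjusted p = 0.0211). Without siTHUMPD3 replicate 3, the difference of *ITGAV* between siTHUMPD3 and shD3#4 was 0.29, no longer past the fold threshold, that of *ITGA5* between siTHUMPD3 and shD3#1 was -0.79 and past both (adjusted p = 2.16e-06), and those of *ITGB3* were 1.93 and 1.81 against shD3#1 and shD3#4. Knockdowns also differed in the remaining level of *THUMPD3*, in reagent and, for the siRNA, in harvest time, and their part in these differences was not tested.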

How the results depend on the processing

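Of 1425 recomputed log2 fold changes of the 10 genes and *THUMPD3*, 1360 kept their direction and side of the threshold, 40 lost a call, 13 gained one and 12 changed sign. At a log2 fold change of at least 1, the counts were 3 higher and 1 lower in shD3#1, 1 higher in shD3#4 and 2 higher in siTHUMPD3. In deep shD3#1 they were 2 higher and 2 lower (*ITGA1* and *ITGB3*). For the differences, 2 were higher and 2 lower (*ITGA1* and *ITGB6*) between shD3#1 and shD3#4. Between siTHUMPD3 and shD3#1, 2 were higher (*ITGA1* and *ITGB3*) and 1 lower. Between siTHUMPD3 and shD3#4, 1 was higher and 1 lower. In the average, *ITGB8* and *ITGA2* stayed higher at this threshold. Shares of all genes called at this threshold are not given, so the counts describe the 10 genes only. DESeq2, at least 10 counts in every sample, glmTreat and 1 fit of all 17 libraries each left 1 lower in shD3#1, the call of *ITGB3* being lost or not tested. At least 10 counts also left 1 higher between siTHUMPD3 and shD3#1, by the removal of *ITGB3*. In siTHUMPD3, glmTreat of edgeR called 0 higher, beside 5 at an unadjusted p under 0.05 and 3 by DESeq2. Leaving out each library gave 1 to 2 lower in shD3#1 and 1 to 4 higher in siTHUMPD3, where siControl replicate 1 left 2, siControl replicate 2 left 1 and siTHUMPD3 replicate 3 left 2. It gave 2 to 5 higher and 1 to 2 lower for siTHUMPD3 against shD3#4, with 5 higher without siTHUMPD3 replicate 1 or 2 and 1 lower without siControl replicate 1. A fit with the replicate block, for which the labels give no shared culture or day, called 2 higher in siTHUMPD3, since siTHUMPD3 replicate 3 has no control of that number, and gave -0.10 for the average of *ITGB3*, which was 0.17 without the block. Signs also changed, for values not called with all libraries, when single libraries were left out: *ITGA1* in siTHUMPD3 ranged from -0.25 to 0.034, *ITGB6* there from -0.43 to 0.067, *ITGB3* from -0.090 to 0.28 in the average and from -0.59 to 0.070 between shD3#1 and shD3#4, *ITGA5*, *ITGAV* and *ITGB6* from -0.79 to 0.065, -0.54 to 0.025 and -0.057 to 0.45 between siTHUMPD3 and shD3#1, and *ITGB8* from -0.13 to 0.50 between siTHUMPD3 and shD3#4. Except where a dropped gene or library is named, the cause was not tested. Depth limits *ITGB3* most, with 6 to 29 counts in the shRNA libraries of the first table.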
